A study of Mus musculus with 6 samples.

Results

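The genes described here are the 4 inhibitor of DNA binding genes (Id1, Id2, Id3 and Id4) and the 3 genes of the E proteins that Id proteins antagonise (Tcf3, Tcf4 and Tcf12). Every probe set that the annotation of this Affymetrix mouse array gives to exactly 1 of these symbols was taken. This gave 22 probe sets for the 7 genes. Of 45037 probe sets that are not controls, 34945 had exactly 1 symbol, and these covered 18193 genes. RNA levels were read on 6 arrays of early thymic progenitors, which are the earliest T-cell precursors of the thymus. They had been sorted for CD44 and kit and against CD25 and lineage markers. The arrays were 3 of Tcf1-/- and 3 of Tcf1-/+ mice, all on the C57Bl/6 background and killed at 10 weeks of age. A second label of the Tcf1-/+ arrays calls them wild type, so that the labels disagree on whether 1 allele was lost, and the name in the titles is used here. The labels do not say in which cells Tcf1 was lost beyond the genotype, nor how many mice gave the cells of an array, so that p-values measure the spread between these 6 arrays.

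E proteins are basic helix-loop-helix transcription factors that bind a short DNA motif, the E box, as dimers with each other or with tissue-restricted partners. Id proteins have the helix-loop-helix but lack the basic DNA-binding region, so that a dimer of an Id and an E protein does not bind the E box. In the thymus E proteins drive T-cell receptor rearrangement and T-lineage gene expression, while Id2 is a regulator of innate lymphoid cells and Id3 acts downstream of receptor signals. The symbols Tcf3 and Tcf4 stand here for the E-protein genes (products E2A and E2-2), as their gene identifiers show, and not for the relatives of Tcf1 that share these older names. Tcf12 encodes HEB.

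The stretches of 250 bases before the transcription start of Id2 and Id3 are shown because these paralogs lay on opposite sides of the genotype comparison. They were taken from RefSeq on GRCm38.p6, where Id2 has its window at chr12:25096093-25096342 on the minus strand and Id3 at chr4:136143572-136143821 on the plus strand. Both are written 5′ to 3′, and capitals mark each E box, which has the letters CANNTG on either strand.
Id2: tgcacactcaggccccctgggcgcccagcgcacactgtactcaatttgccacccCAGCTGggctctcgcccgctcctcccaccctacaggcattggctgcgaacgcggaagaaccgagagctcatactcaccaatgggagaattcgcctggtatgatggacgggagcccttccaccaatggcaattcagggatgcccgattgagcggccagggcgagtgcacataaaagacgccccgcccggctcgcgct
Id3: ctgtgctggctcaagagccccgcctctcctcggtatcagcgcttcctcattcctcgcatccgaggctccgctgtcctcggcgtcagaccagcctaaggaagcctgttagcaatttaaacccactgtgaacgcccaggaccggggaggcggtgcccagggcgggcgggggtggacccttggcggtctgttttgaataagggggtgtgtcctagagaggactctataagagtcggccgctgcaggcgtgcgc
The Id2 window held 1 E box, of the form CAGCTG, with its first base 196 bases before the start, and the Id3 window held 0. Of the 32851 RefSeq windows of this length, 21753 (66.2%) held a CANNTG and 4271 (13.001%) the CAGCTG form, which is one case of CANNTG. The letters CTTTGA, a core of the motif of Tcf1 and its relatives, or their reverse complement TCAAAG, were in neither window and in 13.8% of all windows. A window was found for 5 of the 7 genes, and those of Id4, Tcf3 and Tcf12 are not shown. Of the windows of Tcf12, which has several starts, 1 also held CAGCTG, another held CAAGTG and a further window held none. The Tcf3 window held 1 E box, CACTTG, and the Id4 window held 0. The CAGCTG form was thus not particular to Id2 among these genes. The windows of Id1 and Tcf4 were not analysed here.

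The arrays were comparable in scale, with medians of 5.80 to 5.87 on the log2 scale in which the values were deposited. A level at or under 5.21, the 95th percentile of 27 control probe sets for bacterial transcripts, is called background here. Tcf1-/- replicate 2 stood apart, with correlations of 0.870 to 0.893 to the other arrays, which correlated at 0.913 to 0.933 among themselves. Control probe sets for the 3′ end of Gapdh exceeded those for its 5′ end by 1.74 to 2.885 over the arrays. For Tfrc the same difference was 0.055 in Tcf1-/- replicate 2 and -1.08 to -0.62 on the other arrays. What this meant for probe sets of a gene that disagree was not tested. Y-linked genes averaged 5.004, 8.49 and 8.42 in Tcf1-/- replicates 1 to 3, against 4.07, 9.39 and 4.01 in Tcf1-/+ replicates 1 to 3, and Xist was at 12.87 or above on every array but Tcf1-/+ replicate 2, at 5.12. Sex was thus not balanced over the genotypes, and 2 Tcf1-/- arrays carried both kinds of signal. Of the genes of the gate, Kit and Cd44 had means above background in both genotypes, as did Flt3, Cd34 and Ccr9, which are known from early progenitors. Il2ra, which encodes the CD25 that was sorted against, was at 9.22 to 10.97 over the 6 arrays on its brighter probe set, with a difference of 0.69, and at 4.65 to 7.51 on its other one, with a difference of -1.29. The targeted gene itself was not analysed here.

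Id2 was the gene of the family with the clearest difference between genotypes. Its brightest probe set was at 10.26, 11.36 and 10.22 in the Tcf1-/- arrays, against 7.49, 8.12 and 6.65 in the Tcf1-/+ arrays. Every Tcf1-/- array lay above every Tcf1-/+ array, and the closest pair of arrays was 10.22 in Tcf1-/- and 8.12 in Tcf1-/+. The difference corresponds to a ratio of 9.14, with a 95% confidence interval of 3.98 to 21.0 from limma. It ranked 29 among 18193 genes by size of positive difference and 31 by unadjusted p, which was 0.000616. After adjustment over all probe sets the p was 0.407, so the threshold of 0.05 was not met.

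Further probe sets of Id2 lay in the same direction. The probe set 1422537_a_at was at 9.27, 10.97 and 9.98 in Tcf1-/- and at 7.57, 7.72 and 7.99 in Tcf1-/+, again without overlap. Its difference was 2.31 log2 units (SE 0.45, limma adjusted p = 0.446). The dimmer probe set 1453596_at was at 6.14, 7.82 and 7.05 in Tcf1-/- and at 6.52, 4.11 and 4.69 in Tcf1-/+, where replicate 1 lay above a Tcf1-/- array and the mean of 5.10 was under background. On this probe set the difference was 1.90 (SE 0.73, limma adjusted p = 0.746). On the 3 arrays of low Y-linked signal, which are Tcf1-/- replicate 1 and Tcf1-/+ replicates 1 and 3, the differences of the 3 probe sets were 3.19, 1.49 and 0.53.

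Id3 had a lower mean in Tcf1-/-, with overlapping arrays. Its only probe set was at 6.27, 6.70 and 5.94 in Tcf1-/-, against 6.9998, 6.51 and 7.09 in Tcf1-/+. The Tcf1-/+ replicate 2 was below Tcf1-/- replicate 2, and the other Tcf1-/+ arrays were above all 3 Tcf1-/- arrays. The difference was -0.56 with a 95% confidence interval of -1.27 to 0.14, and limma's adjusted p was 0.836.

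Id1, which responds to bone morphogenetic protein signals, was near background. It was at 5.67, 6.40 and 5.53 in Tcf1-/-, against 5.49, 4.94 and 5.52 in Tcf1-/+. The genotypes did not overlap, but the closest arrays were almost level, and the difference of 0.55 (SE 0.32, limma adjusted p = 0.856) was 0.28 without Tcf1-/- replicate 2 and 0.17 on the arrays of low Y-linked signal. Id4 was under background on every array of its 3 probe sets, between 2.87 and 4.60, so that no difference could be measured for it.

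**Figure D1:**
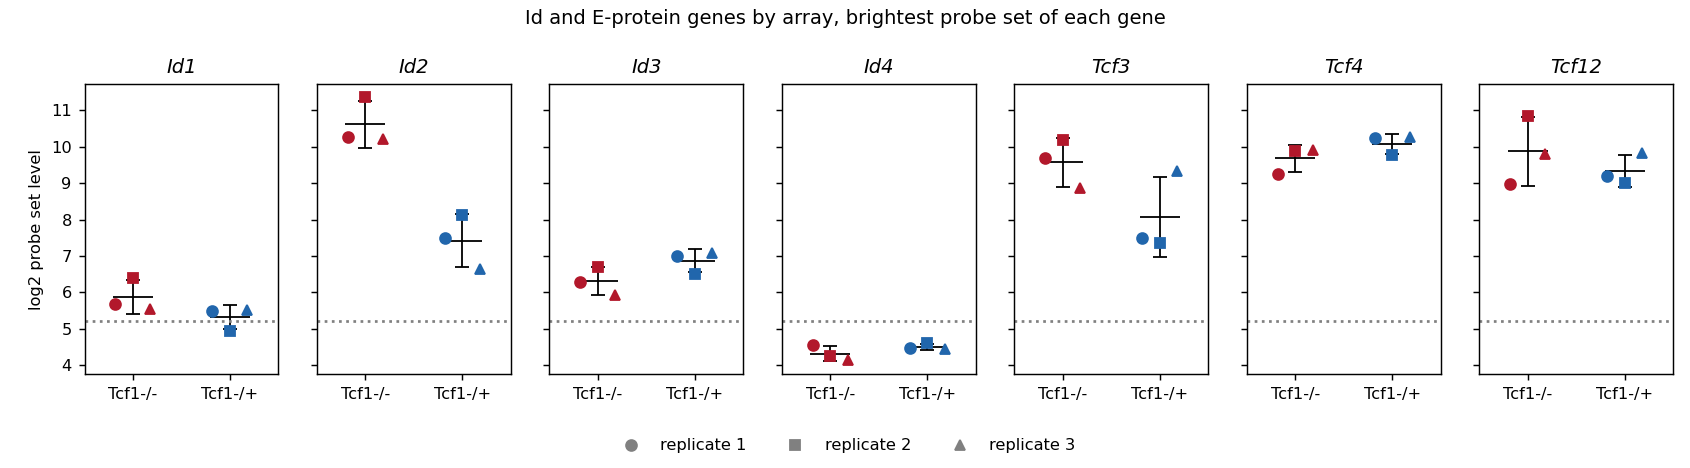
Log2 level of the brightest probe set of each of the 7 genes, with a point for each array, the genotype on the x axis, a bar for the mean and whiskers for the SD (n = 3 each). The dotted line marks the background of 5.21. The Id2 arrays of Tcf1-/- sit between 10.22 and 11.36, above the Tcf1-/+ arrays at 6.65 to 8.12, while Id4 lies under background throughout.

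Tcf3 had the largest positive difference among the E-protein genes on the brightest probe sets, and its probe sets differed in how much of it they showed. The probe set 1426297_at was at 9.69, 10.18 and 8.86 in Tcf1-/- and at 7.49, 7.37 and 9.34 in Tcf1-/+. Tcf1-/+ replicate 3 lay within the Tcf1-/- range, and the other 2 Tcf1-/+ arrays lay below it. The difference was 1.51 with a 95% confidence interval of -0.03 to 3.05 and an unadjusted p of 0.0535, and the adjusted p of limma was 0.780. The difference was 0.50 (SE 0.46) on 1427764_a_at and 0.10 (SE 0.23) on 1452542_x_at. The first of these was 0.091 without Tcf1-/+ replicate 1, 0.21 without Tcf1-/- replicate 1 and 0.77 without Tcf1-/- replicate 3, and the second was -0.036 without Tcf1-/- replicate 2. These probe sets share a source transcript in the annotation, and the suffix x marks probes that can bind other transcripts.

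Tcf12 gave no common direction over its 5 probe sets. The brightest, 1427670_a_at, was at 8.97, 10.86 and 9.79 in Tcf1-/- and at 9.20, 8.99 and 9.83 in Tcf1-/+, with a difference of 0.53 (SE 0.52). It was 0.040 without Tcf1-/- replicate 2 and 0.98 without Tcf1-/- replicate 1. On 1439619_at the difference was 1.37 (SE 0.59), on 1421908_a_at -0.28 (SE 0.26) and on 1446294_at -0.17 (SE 0.49). The genotypes overlapped on all 5, and the lowest adjusted p of limma among them was 0.797. A single array also decided the fifth probe set. The level of 1439209_at was 8.39, 3.46 and 6.85 in Tcf1-/- and 6.47, 7.48 and 8.91 in Tcf1-/+, and the difference of -1.39 (SE 1.33) was 0.0015 without Tcf1-/- replicate 2.

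Tcf4, best known in plasmacytoid dendritic and B-lineage cells, had lower Tcf1-/- means on 5 of its 6 probe sets. The brightest, 1416723_at, was at 9.26, 9.90 and 9.91 in Tcf1-/- and at 10.23, 9.76 and 10.26 in Tcf1-/+, with overlap. Its difference was -0.39 (SE 0.28, limma adjusted p = 0.890), and -0.18 without Tcf1-/- replicate 1. The probe set 1434148_at separated the genotypes, at 7.58, 6.37 and 7.54 in Tcf1-/- and 8.56, 8.50 and 8.24 in Tcf1-/+. The difference there was -1.27 with a 95% confidence interval of -2.19 to -0.36, with an adjusted p of 0.637 from limma. Its neighbour 1434149_at, which the annotation traces to the same source sequence, was higher in Tcf1-/- on average, at 8.65, 8.63 and 8.19 against 7.98, 8.48 and 7.86 in Tcf1-/+, a difference of 0.38 (SE 0.26). The probe sets 1416724_x_at and 1424089_a_at had differences of -0.35 (SE 0.44) and -0.38 (SE 0.45). Single arrays moved both. The first was -0.027 without Tcf1-/+ replicate 3, -0.056 without Tcf1-/- replicate 2, -0.63 without Tcf1-/+ replicate 1 and -0.67 without Tcf1-/- replicate 3. The second was -0.037 without Tcf1-/- replicate 2, -0.11 without Tcf1-/+ replicate 3, -0.65 without Tcf1-/+ replicate 1 and -0.74 without Tcf1-/- replicate 3. On 1416725_at, with both means under background, the difference was -0.0027.

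**Figure D2:**
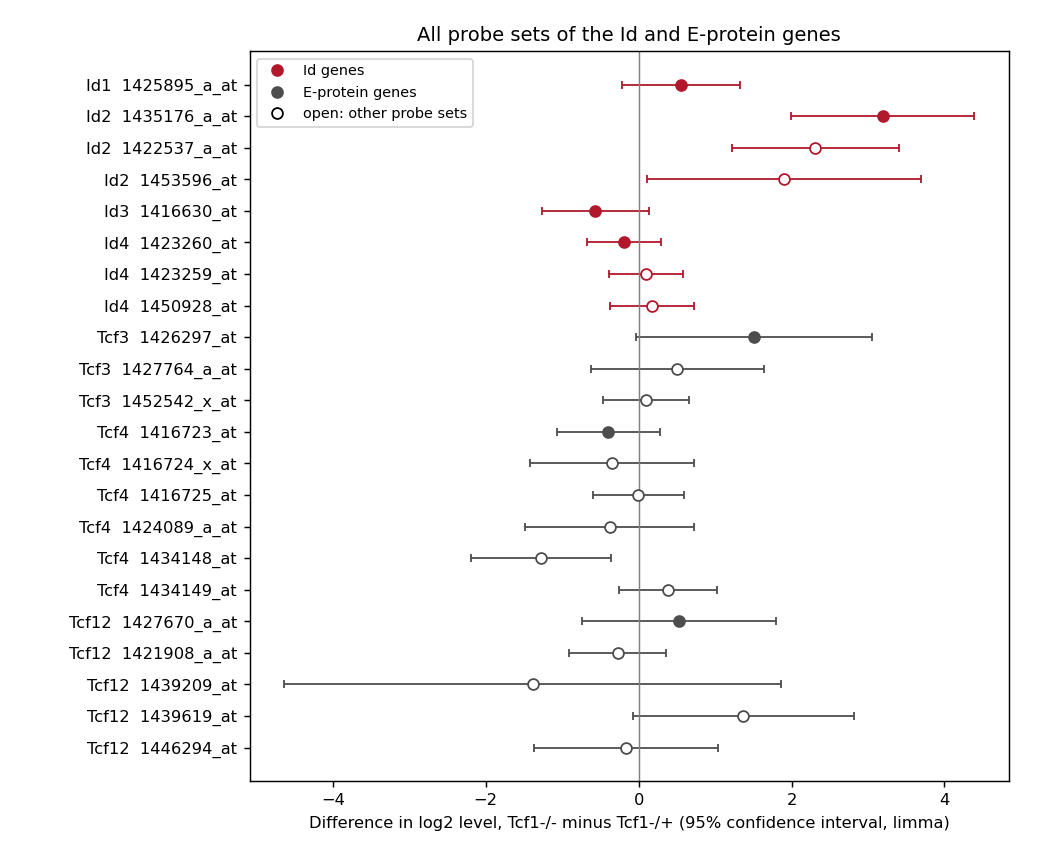
Difference in log2 level, Tcf1-/- minus Tcf1-/+, on the x axis for all 22 probe sets, with 95% confidence intervals from limma and a row for each probe set (filled for the brightest of a gene, open for others). The 3 Id2 probe sets and 1434148_at of Tcf4 have intervals that do not include 0, and the 18 others have intervals that do.

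Of the 22 probe sets, 0 passed an adjusted p of 0.05 in limma, as did 0% of all 45037 probe sets. An unadjusted p under 0.05 was found for 4, against 2917 or 6.48% of all probe sets. These were the 3 of Id2, with higher levels in Tcf1-/- (2.97% of all probe sets in that direction), and 1 of Tcf4, with lower levels (3.51%). The genotypes did not overlap on 4 of the 22, namely 2 of Id2, that of Id1 and 1 of Tcf4, against 11.8% of all probe sets. The median difference was 0.36 over the 8 Id probe sets and -0.08 over the 14 E-protein probe sets, beside 0.03 over all probe sets. These medians count a gene once per probe set. The Id probe sets include 3 of Id2 and 3 of Id4, the latter under background, so the median does not describe the Id genes equally. With 3 arrays in each genotype the smallest exact permutation p is 0.1, so that test was not used.

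The balance of Id to E-protein levels was taken per array as the mean of the 4 Id genes minus the mean of the 3 E-protein genes. Each gene was centred on its own mean over the 6 arrays, because levels of different probe sets cannot be set against each other. The Id mean lay at 0.29, 0.77 and 0.06 in Tcf1-/- and at -0.29, -0.36 and -0.47 in Tcf1-/+, which did not overlap. Its genes differed by 0.55 for Id1, 3.19 for Id2, -0.56 for Id3 and -0.19 for Id4, so that Id2 carried it. The family did not shift as a whole. The E-protein mean lay at -0.13, 0.87 and 0.08 in Tcf1-/- and at -0.47, -0.73 and 0.37 in Tcf1-/+, which did overlap.

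The balance of both families together did not separate the genotypes. It was 0.41, -0.10 and -0.02 in Tcf1-/-, against 0.18, 0.37 and -0.84 in Tcf1-/+. The mean was 0.10 ± 0.28 in Tcf1-/- and -0.10 ± 0.65 in Tcf1-/+ (SD, n = 3 each), and the difference of 0.20 was -0.18 without Tcf1-/+ replicate 3, 0.040 without Tcf1-/- replicate 1, 0.33 without Tcf1-/+ replicate 1 and 0.43 without Tcf1-/+ replicate 2. It was 0.49 with the mean over all probe sets of a gene and 0.51 without Id4, the gene under background, and the genotypes overlapped in both cases. With Id2 left out of the Id mean the difference was -0.62, with arrays at 0.10, -0.62 and -0.40 in Tcf1-/- and at 0.59, 0.55 and -0.21 in Tcf1-/+.

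Single Id and E-protein genes were also set against each other. Id2 minus Tcf4 was 1.87, 2.33 and 1.18 in Tcf1-/-, against -1.87, -0.77 and -2.74 in Tcf1-/+, and Id2 minus Tcf12 was 1.88, 1.09 and 1.02 in Tcf1-/-, against -1.12, -0.28 and -2.59 in Tcf1-/+. Neither pair overlapped between genotypes. Id2 minus Tcf3 did overlap, at 0.37, 0.98 and 1.17 in Tcf1-/- and -0.20, 0.56 and -2.88 in Tcf1-/+. Id3 minus Tcf3 lay the other way without overlap, at -1.19, -1.24 and -0.68 in Tcf1-/- and 1.74, 1.38 and -0.015 in Tcf1-/+, a difference of -2.07. Neither Id3 nor Tcf3 alone separated the genotypes. The score uses the brightest Tcf3 probe set, with a difference of 1.51, where the others differed by 0.50 and 0.10. Id3 was not set against Tcf4 or Tcf12, and how often such pairs separate over all genes was not measured. Within the Id family, Id2 minus Id3 was 1.56, 2.22 and 1.85 in Tcf1-/- and -1.94, -0.83 and -2.87 in Tcf1-/+, with no overlap. Id2 alone already separated the genotypes, so that the scores that hold Id2 are not evidence apart from it. These are descriptions of scores over the members, and no test was made on them.

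Genes described as E-protein targets in lymphoid cells did not share a direction, and 5 of them are also B-lineage markers. Of 24 listed, 22 were measured, 12 with higher and 10 with lower Tcf1-/- means, and their median difference was 0.06 beside 0.04 over all genes. None passed limma's adjusted threshold, while 3 higher and 3 lower had an unadjusted p under 0.05, where 6.78% of all 18193 genes had one, 3.38% on the higher and 3.4% on the lower side. The genotypes did not overlap for 5 of the 22, against 12.2% of all genes.

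On the higher side, Il7r, the interleukin 7 receptor gene, was at 11.91, 13.20 and 11.87 in Tcf1-/-, against 10.25, 10.54 and 10.21 in Tcf1-/+. Its other probe set differed by 3.14, also without overlap. Cd4, the co-receptor gene, was at 8.73, 9.86 and 8.51 in Tcf1-/-, against 5.49, 7.27 and 5.53 in Tcf1-/+, and its other probe set overlapped, with a difference of 1.61. The chemokine receptor gene Cxcr5 was at 5.79, 7.39 and 8.40 in Tcf1-/- and under background in every Tcf1-/+ array, at 3.80 to 3.96, so that the size of its difference is not well measured.

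On the lower side, Dntt, which encodes the polymerase that adds bases at receptor gene joints, was at 11.05, 12.19 and 11.75 in Tcf1-/-, against 12.97, 13.19 and 12.90 in Tcf1-/+. All 3 of its probe sets separated the genotypes, with differences of -1.36, -1.57 and -2.38. The adjusted p of Dntt in limma was 0.535 on the brightest of them. Cd3e and Rag1 also had lower Tcf1-/- means, with differences of -1.66 and -1.88 and with overlap. The Rag1 mean was under background in Tcf1-/-, at 4.76, and above it in Tcf1-/+, at 6.64. The targets Ptcra and Ebf1 had means under background in both genotypes, and Notch3 in Tcf1-/+. Notch1, Gfi1, Cdk6 and Foxo1 differed by -0.38, 0.09, 0.05 and -0.26.

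**Figure D3:**
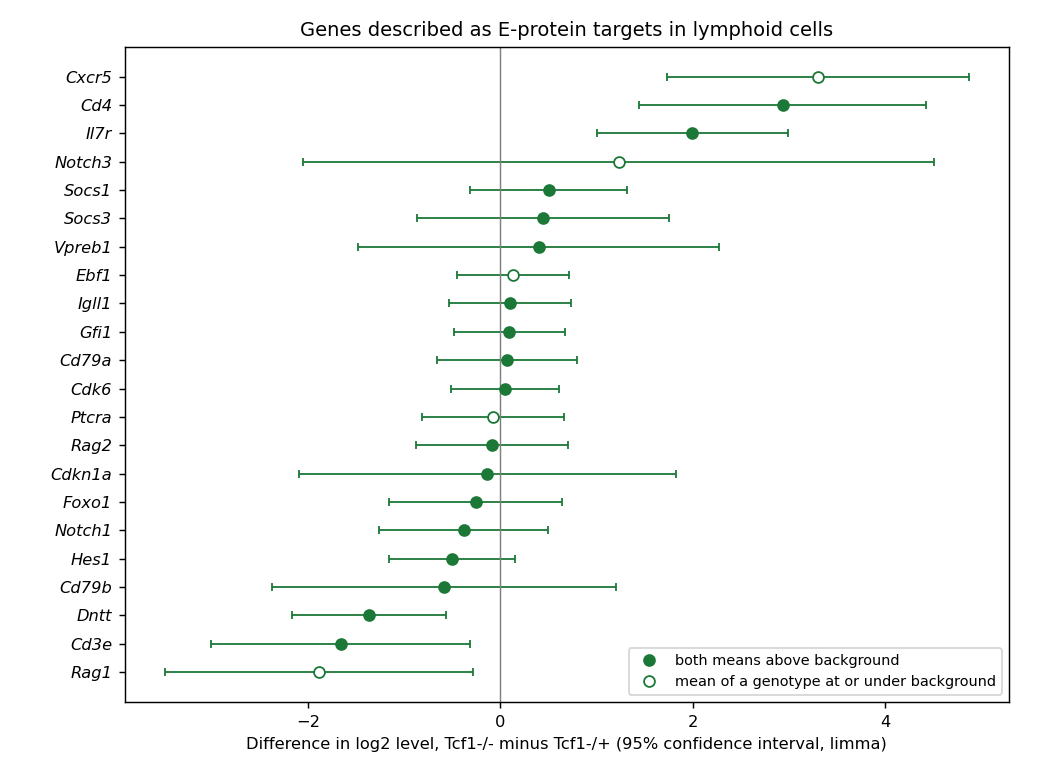
Difference in log2 level, Tcf1-/- minus Tcf1-/+, on the x axis for 22 genes described as E-protein targets, by the brightest probe set of each, with 95% confidence intervals from limma. Cxcr5, Cd4 and Il7r lie to the right and Rag1, Cd3e and Dntt to the left with intervals that do not include 0, and the other 16 include it.

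Dimer partners and cofactors of the E proteins gave no gene past an unadjusted p of 0.05 in limma, beside 6.78% of all genes. Of 21 listed, 20 were measured, 12 with higher and 8 with lower Tcf1-/- means and a median of 0.05. Of the 20, 0 separated the genotypes, beside 12.2% of all genes. Whether these counts differ from the shares over all genes was not tested. Lyl1, a basic helix-loop-helix partner active in progenitors, was at 10.00, 7.49 and 8.80 in Tcf1-/-, against 10.61, 9.33 and 9.53 in Tcf1-/+. The corepressor gene Cbfa2t3 differed by -0.64 (SE 0.31), with 0.17, 0.43 and -1.10 on its other probe sets, Ldb1, an adaptor of LIM-domain proteins, by -0.78 (SE 0.38), and Lmo4, a LIM-only gene, by 1.19 (SE 0.74).

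Genes that act upstream of Id genes were likewise mixed, with 12 higher and 9 lower means among 21 measured and a median of 0.04. Smad5, a carrier of bone morphogenetic protein signals, was at 8.42, 8.84 and 9.44 in Tcf1-/-, against 9.70, 10.52 and 10.05 in Tcf1-/+, without overlap. Its other probe sets differed by 0.08 and -0.24. Egr1, an early response gene of the family that induces Id3, was at 8.78, 9.23 and 7.56 in Tcf1-/-, against 7.72, 6.65 and 5.93 in Tcf1-/+, with overlap. Tgfbr1, a receptor of transforming growth factor beta, differed by 0.62 (SE 0.28) without overlap, but by 0.47 and -0.40 on its other probe sets. Nfil3, which induces Id2 in innate lymphoid precursors, was at 6.52, 9.13 and 8.40 in Tcf1-/-, against 5.36, 6.16 and 7.72 in Tcf1-/+, with overlap and a difference of 1.60 (SE 0.87, limma adjusted p = 0.844).

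The genes of most similar pattern were found by the root mean square difference of centred log2 levels over the 6 arrays, among 10794 other genes of mean level above the median of all probe sets. For Id2, whose own spread on this measure was 1.69, they were Upp1, a uridine phosphorylase gene, at 0.332, the thrombin receptor gene F2r at 0.344 and Cd4 at 0.376. Nearest to Tcf3, with a spread of 1.06, were Tmem38b at 0.310, Tmem216 at 0.311 and Fam210b at 0.311. Nearest to Id3, with a spread of 0.400, were Aftph at 0.0890, Arel1 at 0.0952 and Eml5 at 0.130. Such likeness over 6 arrays is a description only.

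Markers of other cell types were read beside the Id2 result. Of 14 measured natural killer and innate lymphoid markers, 10 had higher Tcf1-/- means, with a list mean of 7.49 to 8.45 over the Tcf1-/- arrays and 6.53 to 7.21 over the Tcf1-/+ arrays. Of the 14, 6 higher and 1 lower had an unadjusted p under 0.05, and 4 higher and 1 lower did not overlap between genotypes, beside 6.78% and 12.2% of all genes. Gzmb, a cytotoxic granule protease gene, was at 11.08, 9.59 and 10.78 in Tcf1-/-, against 6.16, 5.38 and 7.73 in Tcf1-/+, a difference of 4.06. The others of the 4 were Icos, a costimulatory receptor gene, with 3.22, Il18r1, an interleukin 18 receptor chain gene, with 2.43, and the chemokine receptor gene Cxcr6 with 4.50 over a Tcf1-/+ mean under background. The lower one was the receptor gene Klrd1, with a difference of -1.49. None of them passed limma's adjusted threshold. The defining genes Ncr1 and Tbx21 had means under background in both genotypes. The list of genes of the sort and of progenitor identity had a mean of 9.84 to 9.99 in Tcf1-/- and of 10.40 to 10.42 in Tcf1-/+, with 6 of 9 lower in Tcf1-/-. Kit was at 9.99, 7.45 and 9.60 in Tcf1-/-, against 10.80, 10.50 and 9.83 in Tcf1-/+, with overlap. Its other probe set overlapped too, with a difference of -0.61. Flt3 and Cd34 were lower in Tcf1-/- without overlap, with differences of -1.53 and -1.24. They were the only 2 of the 9 without overlap, beside 12.2% of all genes, and 3 of the 9 had higher Tcf1-/- means.

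The myeloid, B-lineage and erythroid lists overlapped between genotypes. The stromal list did not, but its closest arrays were almost level, at 6.592 in Tcf1-/- and 6.581 in Tcf1-/+. The mean over 8 myeloid markers was 7.20 to 8.25 in Tcf1-/- and 6.81 to 8.73 in Tcf1-/+, over 8 B-lineage markers 5.48 to 5.84 in Tcf1-/- and 5.35 to 5.61 in Tcf1-/+, and over 5 erythroid markers 5.85 to 7.08 in Tcf1-/- and 4.60 to 6.62 in Tcf1-/+. Over 9 stromal markers it was 6.59 to 6.71 in Tcf1-/- and 6.16 to 6.58 in Tcf1-/+. All 9 stromal markers had higher Tcf1-/- means, but 0 of them separated the genotypes, beside 12.2% of all genes. Of the 5 erythroid markers 4 had higher and 1 a lower Tcf1-/- mean, with a median difference of 1.16. The erythroid overlap rested on Tcf1-/+ replicate 3, at 6.62, with the other Tcf1-/+ arrays at 4.60 and 4.96. The part of these cells, of sex and of the array that stood apart in the Id2 difference was not tested. On the brightest Id2 probe set the difference was 2.82 without Tcf1-/- replicate 2 and 2.92 when the Y-linked level entered the fit. In the same order it was 1.86 and 2.17 on 1422537_a_at, and 1.49 and 2.02 on 1453596_at. On the 3 arrays of low Y-linked signal, the brightest Id2 probe set, 1422537_a_at and 1453596_at differed by 3.19, 1.49 and 0.53. In sorted populations more cells with a transcript and more transcript per cell cannot be told apart.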

How the data were processed

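RNA of sorted thymic progenitors was measured on 6 Affymetrix arrays, after whole-transcriptome amplification, per the labels' protocols. A yield of about 3 ng of total RNA was obtained from 1000 cells on average. The values deposited by the authors hold a log2 summary for each probe set, from 2.15 to 14.8. That scale was read from the values. The summary method and the normalization are not given in the sources. Arrays have no read depth, and their number limits the precision.

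Values were used as deposited. After removal of 64 controls, 45037 probe sets entered a two-sided comparison without covariates in limma 3.58.1 (lmFit, eBayes; R 4.3.3), with Benjamini-Hochberg adjustment over all of them and a threshold of 0.05. The test was run on simulated data with independent normal noise. Those data hold no outlying array and no sex difference, so that the run does not check the test for these. The annotation gave 1 symbol to 34945 probe sets, several to 932 and none here to 9160, and the brightest probe set on average stood for its gene. Unused columns of values numbered 0.

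The 7 members, the 11 gene lists and the alternatives were chosen with earlier results of these data known. Named genes were all probe sets of the members, the 4 genes of smallest unadjusted p above background in each list around the members, and the 3 genes of most similar pattern to Id2, Id3 and Tcf3. Other genes named in the text were chosen after their values were seen. Listed genes without a probe set of 1 symbol were not analysed here.

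The alternatives were a replicate block, quantile normalization, a common median, a filter on mean level, a floor at background, array weights, a trended robust variance, the Y-linked level as a covariate, other probe sets of a gene, leaving out each array and, added after the data were seen, the 3 arrays of low Y-linked signal.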

Additional observations from a re-analysis of the deposited data

How the results depend on the processing

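No alternative called a member probe set or any other probe set at an adjusted p of 0.05, and the count was 0 in each. The sign of 15 of the 22 member probe sets was kept under every fit tried, among them all 3 of Id2, whose brightest probe set lay between 2.81 and 3.54 with adjusted p of 0.332 to 0.704. With the replicate number as a block the difference of that probe set was 3.19 with an adjusted p of 0.616 as the lowest of the members. Same-numbered arrays deviated together with correlations of 0.012 to 0.045, so the numbers were not taken as pairs, and the block called 0 probe sets.

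Signs turned as follows, and the cause was not tested. Leaving out single arrays gave a range of -0.036 to 0.23 for 1452542_x_at of Tcf3, -0.12 to 0.17 for 1416725_at of Tcf4, -2.47 to 0.0015 for 1439209_at and -0.58 to 0.21 for 1446294_at of Tcf12, and of -0.18 to 0.43 for the Id to E balance. The balance was 0.49 with the mean over all probe sets of a gene, 0.51 with genes above background only, and 0.75 on the arrays of low Y-linked signal. On these arrays 1423260_at and 1423259_at of Id4 were at 0.089 and -0.11, 1452542_x_at of Tcf3 at -0.046, and 1427670_a_at and 1439209_at of Tcf12 at -0.54 and 0.70. For 1416725_at of Tcf4 the difference was 0.0060 after a shift to a common median and 0.032 with a floor. In place of the brightest probe set, others gave 0.094 and 0.18 for Id4, 0.38 for Tcf4, and -0.28, -1.39 and -0.17 for Tcf12. With the floor, Id4 gave no value, and the filter on mean level left out Id1, Id4 and 1416725_at of Tcf4. The closeness of Id1, Id4 and 1416725_at to background limits what can be read from them.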

Other observations

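Other helix-loop-helix factors, outside the list of E-protein partners, were also read, and none passed limma's adjusted threshold. Of 20 measured, 11 had higher and 9 lower Tcf1-/- means, 3 higher and 2 lower had an unadjusted p under 0.05, beside 6.78% of all genes, and the genotypes did not overlap for 4, beside 12.2% of all genes. Ahr, which encodes the aryl hydrocarbon receptor, was at 9.30, 9.93 and 8.75 in Tcf1-/-, against 8.07, 8.26 and 7.24 in Tcf1-/+. Its other probe set differed by 1.57 with overlap. Its dimer partner gene Arnt was at 9.89, 9.52 and 9.46 in Tcf1-/-, against 10.18, 10.38 and 10.16 in Tcf1-/+, and its other probe sets had differences of either sign, from -0.40 to 0.86. Hey1, a Notch target, was at 7.87, 6.22 and 7.14 in Tcf1-/-, against 5.64, 5.74 and 5.68 in Tcf1-/+. Tfec, of the Mitf family, was at 6.10, 3.91 and 4.88 in Tcf1-/-, with a mean under background, against 6.48, 6.40 and 7.44 in Tcf1-/+.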
